A study of Mus musculus with 12 samples.

Results

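Epithelial cells are joined by tight junctions and adherens junctions, and mouse embryonic stem (ES) cells, which grow as compact colonies, carry many of the same proteins. Claudins are the membrane proteins that form the strands of the tight junction, occludin (Ocln) lies in the same strands, and Tjp1 (ZO-1) is the scaffold that ties them to actin. E-cadherin (Cdh1) holds ES cells together at the adherens junction, N-cadherin (Cdh2) takes that place in many mesenchymal and neural cells, and Epcam is an epithelial cell adhesion molecule known to bind Cldn7. The mRNAs of 10 such genes were followed here, namely Cldn3, Cldn4, Cldn6, Cldn7, Cldn9, Tjp1, Ocln, Cdh1, Cdh2 and Epcam, and all 10 passed the filter on dim probes. They were among 32451 genes on the array and 29546 that were tested. Of those tested, 19219 had a symbol, and the rest were accessions without one, each counted as a gene. The group was chosen by the level of Cldn7 in Mbd3 KD, which lay above that in the EGFP KD control, so the values of these 10 genes in that comparison are given as a description with no test.

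RNA was taken from E14 cells, an ES cell line of male mouse origin grown without feeder cells on gelatin in serum and LIF, 48 hr after transfection with endoribonuclease-prepared siRNAs (esiRNAs). One group was transfected against EGFP, a gene these cells lack, and served as the control (EGFP KD). The others were transfected against Dnmt1, which copies DNA methylation after replication, Tet1, which oxidises methylcytosine, Mbd3 and Mbd2, the alternative methyl-CpG-binding domain subunits of the NuRD complex, or Chd4, the remodelling ATPase of NuRD. Each group holds 2 arrays, for 12 in all, which are biological replicates of transiently transfected cells by the study's account. In such bulk RNA, fewer cells of a type and less RNA per cell cannot be told apart.

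The 250 bases before the transcription start of Cldn7, Cldn6 and Cldn3 are shown because these genes carry the differences described below and because several of the knocked-down proteins act on CpG methylation or bind it. The sequences are from RefSeq on GRCm38.p6, 5′ to 3′ on the strand of the gene, with every CpG in capitals. Cldn7 has 2 annotated starts on the plus strand, whose windows are chr11:69964529-69964778 and chr11:69965171-69965420. The windows of Cldn6 and Cldn3, also on the plus strand, are chr17:23679115-23679364 and chr5:134985964-134986213.
Cldn7, upstream start: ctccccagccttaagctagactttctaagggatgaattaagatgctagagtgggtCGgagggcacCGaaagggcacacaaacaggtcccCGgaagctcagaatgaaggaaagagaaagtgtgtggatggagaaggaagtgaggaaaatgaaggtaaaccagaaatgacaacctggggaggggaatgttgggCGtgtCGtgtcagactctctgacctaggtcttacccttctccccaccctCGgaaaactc
Cldn7, downstream start: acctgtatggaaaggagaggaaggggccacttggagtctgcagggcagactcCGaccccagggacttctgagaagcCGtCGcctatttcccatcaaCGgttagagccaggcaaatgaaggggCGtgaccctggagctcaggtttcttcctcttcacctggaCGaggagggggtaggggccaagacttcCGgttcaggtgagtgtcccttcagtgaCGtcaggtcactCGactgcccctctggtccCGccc
Cldn6: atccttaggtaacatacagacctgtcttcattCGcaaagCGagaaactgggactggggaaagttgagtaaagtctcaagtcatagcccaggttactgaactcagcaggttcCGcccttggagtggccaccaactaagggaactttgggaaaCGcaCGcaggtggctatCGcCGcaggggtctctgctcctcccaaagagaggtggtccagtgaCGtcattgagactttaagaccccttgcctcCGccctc
Cldn3: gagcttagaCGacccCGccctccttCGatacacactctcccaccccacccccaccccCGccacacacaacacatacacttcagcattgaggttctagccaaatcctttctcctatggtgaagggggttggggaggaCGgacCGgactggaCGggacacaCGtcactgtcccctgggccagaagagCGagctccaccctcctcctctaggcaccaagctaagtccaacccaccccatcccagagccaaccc
These windows hold 6 and 10 CpG at the Cldn7 starts, 9 at Cldn6 and 9 at Cldn3, where the median of 32841 promoters cut the same way is 6. Windows were cut for 7 of the members, with 9 starts in all, and not for Cldn9, Cdh1 or Cdh2. Across these windows the number of CpG ran from 6 at the upstream start of Cldn7 to 22 at Tjp1 and at the downstream start of Ocln. The E-box CACCTG, read on both strands, is the sequence through which Snail and Zeb repressors are known to act on Cdh1. It occurs in 5 of the 9 windows, among them the downstream start of Cldn7 and Cldn6 but not Cldn3, and in 17.2% of all promoters. The GC box GGGCGG, also read on both strands, occurs in 8 of the 9 and in 32.7% of all promoters, and the motifs can share at most 1 base. Cldn3 and Cldn4 are neighbours on chromosome 5, and Cldn6 and Cldn9 on chromosome 17, with 0 annotated genes between either pair.

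Values below are log2 signals, the log2 of the background-corrected brightness of a probe over the 75th percentile of its array, so that 0 is the brightness of the 75th percentile. They compare 1 gene across arrays and cannot rank genes, since probes differ in brightness. The arrays lay on 3 slides, and slide 3 held no EGFP KD array. By Tet1 and by the dimmer of 2 Mbd2 probes (A_66_P133043), the targeted mRNA goes against the label on 2 arrays. Replicate 1 of the arrays labelled Tet1 KD had Tet1 mRNA at -0.02 relative to the control mean and this Mbd2 probe at -1.75. Replicate 1 of those labelled Mbd2 KD had -1.79 and -0.24, and replicate 2 had this Mbd2 probe at -1.77. The brighter Mbd2 probe (A_55_P2036526) was at -0.20 on Tet1 KD replicate 1. It was at -0.08 and -0.07 on the Mbd2 KD arrays, so by this probe neither was clearly lowered. Both of these doubted replicate 1 arrays were kept under their labels, and results that rest on them are also given with these arrays left out. Of 10 ES cell markers, 9 or 10 were well above background on each array, with array means of 3.14 to 3.52, but Pou5f1, Zfp42, Esrrb, Dppa5a and Utf1 were saturated on most arrays, so these means cannot show how far the arrays differ, and the probe for Nanog lay close to the floor on every array (-4.86 to -3.86).

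Cldn7 and Cldn6 passed the test in Chd4 KD against EGFP KD, both close to the threshold (limma, adjusted p = 0.041 and 0.038). No member passed after knockdown of Dnmt1, Tet1 or Mbd2. Cldn7 had been chosen against these same 2 EGFP KD arrays, and its difference in Chd4 KD did not pass against Mbd2 KD or Dnmt1 KD (limma, adjusted p = 0.053 and 0.11). In Chd4 KD against EGFP KD, 2 of 10 members had an adjusted p under 0.05 in limma, both higher, where 3.2% of all genes tested passed and 1.97% passed as higher. The median difference over the 10 members was 0.27, beside 0 over all genes tested. After knockdown of Dnmt1, Tet1 or Mbd2, 0 of 10 members passed and 0% of all genes did, so these comparisons had no calls in which a member could stand out. At an unadjusted p under 0.05 Dnmt1 KD had 1 member, Cldn3, beside 4.67% of all genes (1379), Tet1 KD had 0 beside 2.85% (841) and Mbd2 KD had 0 beside 2.06% (610). The member medians there were 0.15, 0.00 and 0.06, beside -0.01, 0.09 and 0.00 over all genes.

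The arrays of 4 members did not overlap between Chd4 KD and EGFP KD, where 38.1% of all genes did not. The number was 3 in Dnmt1 KD, beside 21.1%, 2 in Tet1 KD, beside 35.3%, and 2 in Mbd2 KD, beside 22.9%. With 10 members, these numbers were close to or below the shares of all genes. The 3 members in Dnmt1 KD were Cldn3, Cldn7 and Ocln, above both controls, with adjusted p of 0.50, 0.94 and 0.94 in limma. In Mbd3 KD, whose values chose the genes, the counts restate the choice and nothing is read from them. There 1 of 10 members, Cldn7 itself, was under the threshold (0.762% of all genes), 8 did not overlap EGFP KD (30.1% of all genes), and the median was 0.42.

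Every comparison with EGFP KD uses the same 2 control arrays, those against which Cldn7 had been found higher in Mbd3 KD. Chd4 KD was therefore also set against Mbd2 KD and against Dnmt1 KD, whose means use neither the EGFP KD nor the Mbd3 KD arrays, although the spread is estimated over all 12. Against Mbd2 KD, 1 of 10 members passed, where 3.11% of all genes did and 2% as higher, and it was Cldn6, higher in Chd4 KD. The arrays of 5 members did not overlap, beside 34.7% of all genes. Against Dnmt1 KD, 1 of 10 passed, where 2.63% of all genes did and 1.18% as lower, and it was Cldn3, lower in Chd4 KD. The arrays of 6 members did not overlap, beside 31.3%. The median differences of the members were 0.12 and 0.27, beside 0.01 and 0.05 over all genes.

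**Figure D1:**
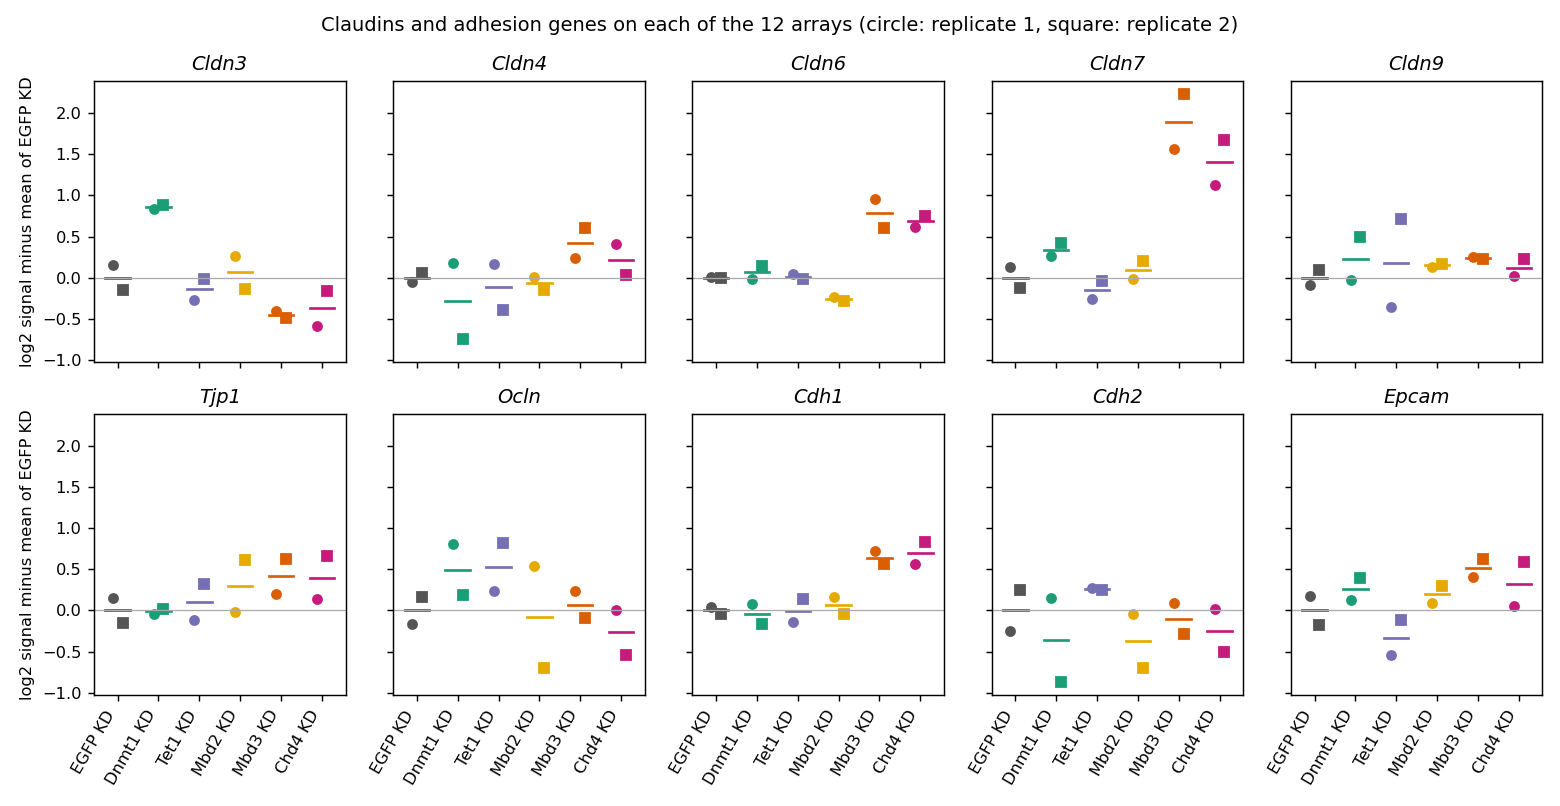
Log2 signal of each gene on each of the 12 arrays minus the mean of the 2 EGFP KD arrays (vertical axis, log2 units), by group (horizontal axis); circles are replicate 1, squares replicate 2 and bars the group mean. Cldn7, Cldn6 and Cdh1 lie above all other groups in both Mbd3 KD and Chd4 KD, and Cldn3 is highest in Dnmt1 KD. The Mbd3 KD values, which chose the genes, are a description.

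Cldn7, a claudin of simple epithelia (probe A_55_P2158653), was the member with the widest range. Its log2 signals were 0.25 and 0.01 on the EGFP KD arrays, 1.69 and 2.37 in Mbd3 KD, and 1.26 and 1.81 in Chd4 KD. The remaining arrays lay between -0.14 and 0.55, with -0.14 and 0.09 in Tet1 KD, 0.11 and 0.34 for Mbd2 KD, and 0.39 and 0.55 for Dnmt1 KD. All 4 Mbd3 KD and Chd4 KD arrays were thus above all 8 others, while Mbd3 KD and Chd4 KD overlapped each other. This order, here and for Cldn6 and Cdh1 below, uses the Mbd3 KD arrays and is a description. Its share over all genes was not counted. The mean of Cldn7 was 2.03 ± 0.48 (SD, n = 2) in Mbd3 KD, which is 1.90 above EGFP KD or 3.73-fold. This is the value that chose the genes.

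In Chd4 KD the mean of Cldn7 was 1.53 ± 0.39 (SD, n = 2) against 0.13 ± 0.17 (SD, n = 2) in EGFP KD. The difference was 1.40 (SE 0.27, adjusted p = 0.041), or 2.65-fold. Against Mbd2 KD it was 1.31 (SE 0.27, adjusted p = 0.053) and against Dnmt1 KD 1.07 (SE 0.27, adjusted p = 0.11), neither past the threshold. With the 2 doubted arrays left out, the difference from Mbd2 KD was 1.20 (adjusted p = 0.36). On slide 2, the only slide with both groups, Chd4 KD replicate 1 stood 1.25 above EGFP KD replicate 2. In Dnmt1 KD, Cldn7 was 0.34 above EGFP KD (SE 0.27, adjusted p = 0.94), with both arrays above both controls.

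The call of Cldn7 in Chd4 KD held in 11 of 24 alternative fits, with adjusted p between 0.0015 and 0.26, and the difference was above 0 in all 24. It was lost without any 1 array of EGFP KD, Dnmt1 KD, Tet1 KD, Mbd2 KD or Chd4 KD, and without both arrays whose target goes against the label (1.40, adjusted p = 0.14).

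Cldn6, a claudin of early embryonic epithelia (probe A_51_P423743), was highest after the same 2 knockdowns. It measured -1.29 and -1.30 in EGFP KD, -0.34 and -0.69 in Mbd3 KD, and -0.67 and -0.54 in Chd4 KD. In Mbd2 KD it was -1.54 and -1.58, the lowest arrays of the series, and in Dnmt1 KD and Tet1 KD it lay between -1.31 and -1.15. The Mbd3 KD and Chd4 KD arrays overlapped each other and lay above all others. Cldn6 in Mbd3 KD was 0.78 above EGFP KD, 1.72-fold, as a description.

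In Chd4 KD, Cldn6 was 0.69 above EGFP KD (SE 0.13, adjusted p = 0.038), or 1.61-fold. It was 0.95 above Mbd2 KD (SE 0.13, adjusted p = 0.010), and 0.62 above Dnmt1 KD (SE 0.13, adjusted p = 0.059). Within slide 2 the Chd4 KD array was 0.62 above the EGFP KD array, and within slide 3 it was 1.04 above Mbd2 KD replicate 2. Mbd2 KD differed from EGFP KD by -0.26 (SE 0.13, adjusted p = 1), with both Mbd2 KD arrays below both controls, and with the 2 doubted arrays left out the difference was -0.29.

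The call of Cldn6 against EGFP KD held in 7 of 24 alternative fits (adjusted p 0.021 to 0.22), and against Mbd2 KD in 18 of 24 (0.0085 to 0.23), with the same direction in all. The first was lost without any 1 array other than those of Mbd3 KD, and the second was lost without either array of Mbd2 KD or Chd4 KD. Without both arrays whose target goes against the label, the difference from Mbd2 KD was 0.98 with an adjusted p of 0.13. Cldn9, the neighbour of Cldn6, gave no group apart from the others. Its group means ran from -0.53 in EGFP KD to -0.29 in Mbd3 KD, and neighbouring groups in that order all overlapped, with -0.89 and 0.18 on the arrays of Tet1 KD alone. In Chd4 KD, Cldn9 was 0.12 above EGFP KD (95% interval -0.66 to 0.90, adjusted p = 0.98).

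**Figure D2:**
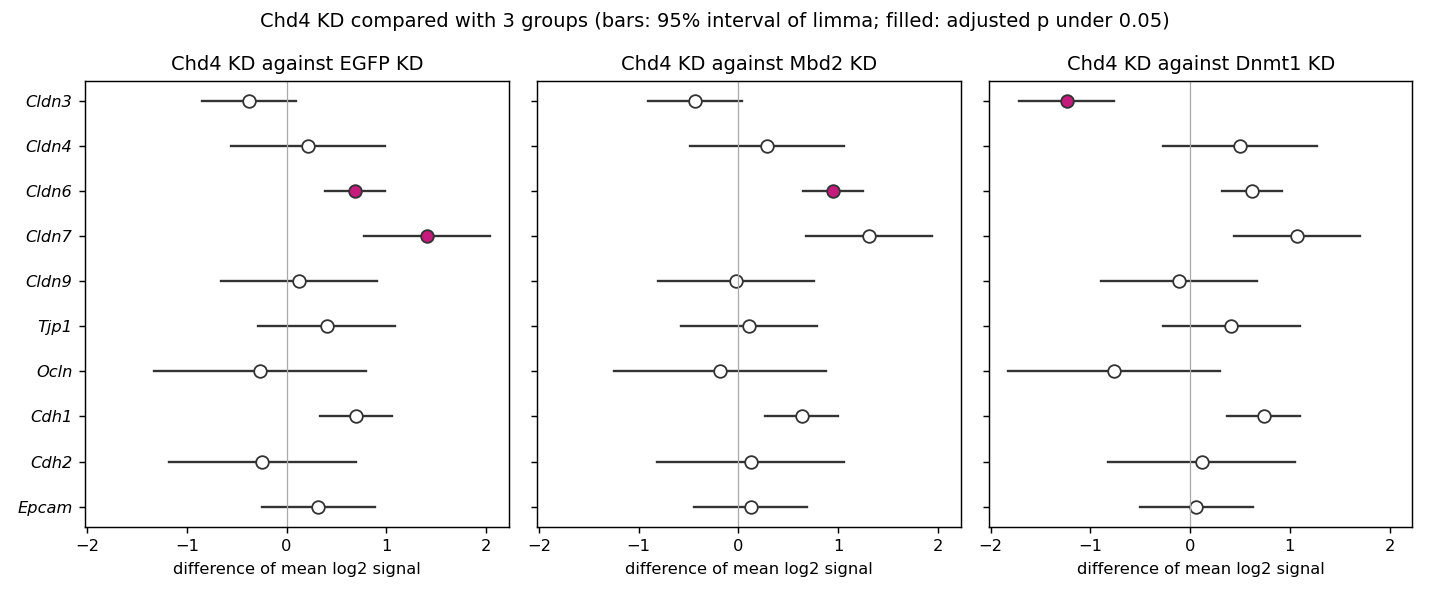
Difference of mean log2 signal of each gene between Chd4 KD and EGFP KD, Mbd2 KD or Dnmt1 KD (horizontal axis, log2 units), with the 95% interval of the limma fit as bars; filled points have an adjusted p under 0.05. Cldn7, Cldn6 and Cdh1 are to the right of 0 in all 3 panels, and Cldn3 is at -1.24 against Dnmt1 KD.

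The signals of E-cadherin were highest on the Mbd3 KD and Chd4 KD arrays, although no comparison of Chd4 KD passed the threshold. The Cdh1 probe (A_51_P137336) was spotted 10 times on each array, with an SD between spots of 0.19 to 0.34, and the mean of the spots was used. It gave 1.99 and 1.90 in EGFP KD, 2.66 and 2.50 in Mbd3 KD, and 2.50 and 2.77 in Chd4 KD. On the 6 remaining arrays it lay between 1.78 and 2.10, so that the 4 Mbd3 KD and Chd4 KD arrays were above the other 8, as a description. Cdh1 in Mbd3 KD was 0.64 above EGFP KD, as a description. In Chd4 KD it was 0.70 above EGFP KD (SE 0.15, adjusted p = 0.070), 0.63 above Mbd2 KD (SE 0.15, adjusted p = 0.096) and 0.74 above Dnmt1 KD (SE 0.15, adjusted p = 0.063). Each of the 3 differences passed in 2 of 24 alternative fits, those with quantile normalization (0.87, 0.79 and 0.87, adjusted p = 0.032, 0.046 and 0.035) and normexp background correction (0.74, 0.65 and 0.76, adjusted p = 0.025, 0.042 and 0.028). With the 2 doubted arrays left out, the difference from Mbd2 KD was 0.74 (adjusted p = 0.24).

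Epcam and Cdh2 passed in no comparison. Epcam measured 0.32 and -0.02 in EGFP KD, 0.56 and 0.78 in Mbd3 KD, 0.20 and 0.74 in Chd4 KD, and -0.39 and 0.03 in Tet1 KD. In Chd4 KD it was 0.32 above EGFP KD (SE 0.24, adjusted p = 0.78), with the arrays overlapping. Cdh2, the cadherin of mesenchymal cells, measured -0.52 and -0.03 in EGFP KD, -0.18 and -0.57 in Mbd3 KD, and -0.25 and -0.78 in Chd4 KD. Its difference in Chd4 KD was -0.24 (95% interval -1.18 to 0.69, adjusted p = 0.92), and its second probe overlapped between Chd4 KD and EGFP KD as well. By the brighter probe, the widest pair of Cdh2 arrays was Dnmt1 KD, with -0.12 and -1.15, and the highest Tet1 KD, with 0.00 and -0.02. By the second probe, the widest pair was Chd4 KD, with -0.64 and -1.10, and the highest Mbd3 KD, with -0.54 and -0.58.

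Cldn3, a claudin of sealing junctions in gut and lung (probe A_55_P2183473), had its highest signals in another knockdown. It measured -1.69 and -2.00 in EGFP KD, -1.01 and -0.96 in Dnmt1 KD, -2.25 and -2.34 in Mbd3 KD, and -2.43 and -2.01 for Chd4 KD. Mbd2 KD, with -1.59 and -1.98, and Tet1 KD, with -2.11 and -1.86, overlapped EGFP KD. The 2 Dnmt1 KD arrays were thus the highest of the 12, and those of Mbd3 KD and Chd4 KD were below both controls. In Dnmt1 KD, Cldn3 was 0.86 above EGFP KD (SE 0.20, 1.82-fold), with an adjusted p of 0.50 in a comparison without calls. In Chd4 KD it was -0.38 from EGFP KD (SE 0.20, adjusted p = 0.56) and in Mbd3 KD -0.45, the latter as a description.

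Between Chd4 KD and Dnmt1 KD, Cldn3 differed by -1.24 (SE 0.20, adjusted p = 0.026), with all array pairs in that direction. On slide 3, which holds 1 array of each, the difference was -1.05. The call held in 15 of 24 alternative fits (adjusted p 0.011 to 0.38). It was lost without any 1 array of Dnmt1 KD, Chd4 KD or Mbd3 KD, and without both arrays whose target goes against the label (-1.24, adjusted p = 0.070).

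Cldn4, the neighbour of Cldn3, had no group apart from the others by its brighter probe. This probe measured -0.21 and -0.10 in EGFP KD, 0.02 and -0.90 in Dnmt1 KD, 0.09 and 0.45 in Mbd3 KD, and 0.25 and -0.12 in Chd4 KD. The 2 arrays of Dnmt1 KD were the farthest apart. A second probe measured -0.47 and -0.47 in EGFP KD against 0.36 and 0.13 in Mbd3 KD, and lay below EGFP KD in Chd4 KD (-0.21) where the brighter probe lay above it (0.22). Neither probe passed in Chd4 KD.

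Tjp1 and Ocln passed in no comparison. Tjp1 measured 0.61 and 0.32 in EGFP KD, 0.67 and 1.09 in Mbd3 KD, and 0.61 and 1.13 in Chd4 KD, and it was 0.45 and 1.08 in Mbd2 KD. Its difference in Chd4 KD was 0.40 (SE 0.29, adjusted p = 0.76). Ocln was dim, at -3.89 and -3.55 in EGFP KD, -3.48 and -3.82 in Mbd3 KD, and -3.71 and -4.26 in Chd4 KD. A second Ocln probe was well above background on 4 arrays only and did not pass the filter. In Chd4 KD, Ocln was -0.27 from EGFP KD (95% interval -1.33 to 0.79, adjusted p = 0.92).

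After knockdown of Tet1 the members differed from EGFP KD by -0.33 (Epcam) to 0.53 (Ocln), and after knockdown of Mbd2 by -0.37 (Cdh2) to 0.30 (Tjp1). With the 2 doubted arrays left out, each of these groups is 1 array, assumed to vary like the other groups. Cldn7 then stood at -0.04 in Tet1 KD and 0.21 in Mbd2 KD, and Cdh1 at 0.14 and -0.04. The widest values were 0.82 for Ocln in Tet1 KD and -0.70 for Ocln in Mbd2 KD. No member passed the test in either group in any of these fits.

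Other junction genes were read from lists written with general knowledge, with earlier results of these data known. In Chd4 KD against EGFP KD, where 3.2% of all genes passed, 1 of 17 other claudins tested did, and the counts that follow are to be read against that share. It was Cldn5, the claudin of endothelium, at 0.65 (adjusted p = 0.040), with -0.59 and -0.73 in Chd4 KD and -1.34 and -1.28 in EGFP KD. Cldn5 also measured -0.98 and -0.76 in Dnmt1 KD, and lay between -1.52 and -1.17 in Tet1 KD, Mbd3 KD and Mbd2 KD. Among 25 other tight junction and polarity genes 1 passed, Jam3, a junctional adhesion molecule, at 1.68 (adjusted p = 0.0019). It measured 0.74 and 0.94 in Chd4 KD and between -0.93 and -0.31 on the 10 other arrays. Among 16 other adherens junction genes 0 passed, with 2 at an unadjusted p under 0.05.

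Among 9 desmosome genes, desmoplakin (Dsp) passed at 0.66 (adjusted p = 0.023). Of 17 regulators of the epithelial state, Ovol1, a repressor of mesenchymal genes, passed at 0.77 (adjusted p = 0.011). Grhl2, an activator of claudin and cadherin genes in epithelia, and its relative Grhl3 did not pass against EGFP KD. They passed against Mbd2 KD, at 1.08 and 0.91 (adjusted p = 0.027 and 0.026), in 11 and 14 of 24 alternative fits. Grhl3 also passed against Dnmt1 KD, at 0.80 (adjusted p = 0.047), in 4 of 24. With the 2 doubted arrays left out none of these passed, with adjusted p of 0.12 and 0.24 against Mbd2 KD and 0.12 against Dnmt1 KD. Tjp3, a relative of Tjp1, Perp, a desmosomal membrane protein, and the integrin Itga6 passed against Mbd2 KD alone, at 0.83, 1.27 and -0.61 (adjusted p = 0.025, 0.049 and 0.020), where 3.11% of all genes did. They passed in 15, 6 and 14 of 24 alternative fits, and none of them passed without these arrays. The differences between the comparisons were not tested. Of 12 epithelial surface genes, Spint1, an inhibitor of membrane serine proteases, was the 1 that passed, lower at -0.99 (adjusted p = 0.0063), with 0.85 and 0.83 in Chd4 KD and 1.64 to 1.92 elsewhere.

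The mesenchymal list did not move one way. Of its 10 tested genes, Col1a1, Thy1 and Mmp2 were higher in Chd4 KD against EGFP KD, at 2.49, 1.42 and 1.28 (adjusted p = 0.0020, 0.0020 and 0.022). Col1a1, a fibrillar collagen, measured -1.80 and -1.90 in Chd4 KD and -4.83 to -4.00 elsewhere. Vimentin (Vim), the intermediate filament of mesenchymal cells and of ES cells in serum, was lower at -1.16 (adjusted p = 0.0083). Its signals were 3.07 and 2.77 in Mbd3 KD, 3.13 and 3.11 in Chd4 KD, and 3.99 to 4.44 elsewhere. The list medians in Chd4 KD ran from -0.17 for other adherens junction genes to 0.12 for mesenchymal genes, beside 0 for all genes.

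The calls of these genes in Chd4 KD against EGFP KD held in 23 of 24 alternative fits for Jam3, Thy1 and Col1a1, 22 for Spint1, 19 for Vim, 17 for Ovol1, and 16 for Mmp2 and Dsp, but in 8 for Cldn5. Without both arrays whose target goes against the label, Jam3, Spint1, Ovol1, Col1a1, Thy1 and Vim still passed, and Dsp, Cldn5 and Mmp2 did not (adjusted p 0.076 for Dsp and 0.082 for Cldn5). The call of Cldn5 held in 4 of the 12 fits with 1 array left out.

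In Mbd3 KD against EGFP KD, 1 of 25 tight junction and polarity genes, 2 of 10 mesenchymal genes and no gene of the other junction and adhesion lists were under the threshold, where 0.762% of all genes were, and nothing is read from this comparison. Marveld2 (tricellulin, which seals the corners where 3 cells meet) was 1.64 higher, Thy1 was 1.28 higher and Vim differed by -1.36. Marveld2 measured -3.94 and -3.54 in EGFP KD and -2.06 and -2.15 in Mbd3 KD. Against EGFP KD, Dnmt1 KD, Tet1 KD and Mbd2 KD had 0 genes of these lists past the threshold.

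**Figure D3:**
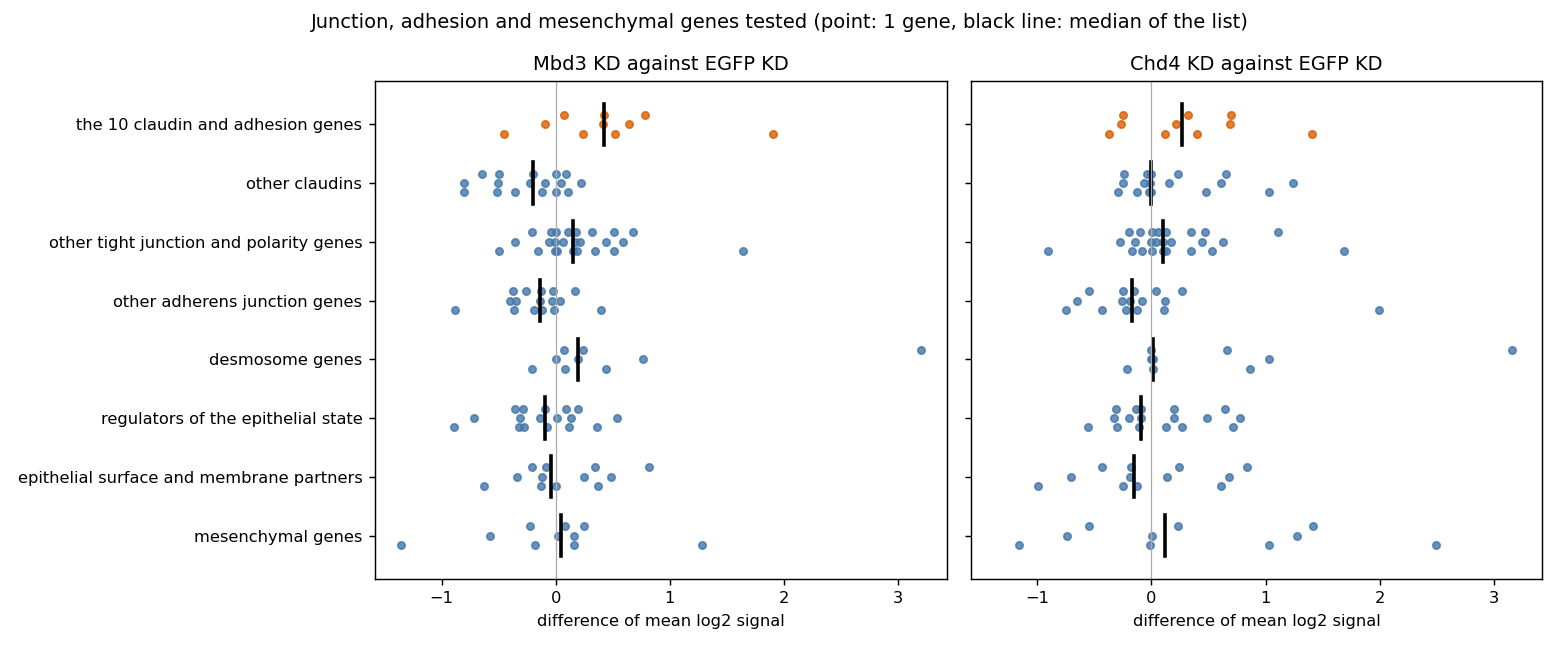
Difference of mean log2 signal from EGFP KD (horizontal axis, log2 units) for every tested gene of each list in Mbd3 KD (left) and Chd4 KD (right); each point is 1 gene and the black line the list's median. The rightmost orange point is Cldn7, at 1.90 and 1.40, and the desmosome point at 3.20 and 3.16 is Pkp2, whose difference had an SE of 1.97 and did not pass.

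Markers of other cell types were set beside the Chd4 KD result. Of 9 trophectoderm markers, 2 were higher in Chd4 KD against EGFP KD, where 3.2% of all genes passed and 1.97% as higher. They were the keratin Krt18 at 1.18 and Tfap2c at 1.05 (adjusted p = 0.020 and 0.0066). The mean of the list was -1.76 to -1.71 on the Chd4 KD arrays, -2.25 to -2.20 in EGFP KD and -2.29 to -2.06 in Mbd3 KD. The median difference of the 9 was 0.43. Krt7 measured -2.73 and -2.63 in Chd4 KD and -3.73 and -3.38 in EGFP KD, and Hand1, Eomes and Gata3 differed by 0.55, 0.43 and 0.26, none of which passed. Elf5, Krt8 and Cdx2 differed by 0.23, 0.07 and -0.25, and Cdx2 was at or below -4.44 on every array. Among 5 primed epiblast markers 1 passed (Otx2, 1.84 higher), and the list median was 0.06. Of 9 primitive endoderm markers Lama1 alone passed, at -1.51, while the list median was 0.13 and the highest difference 1.41. Of 6 fibroblast markers tested Col1a1 and Thy1 passed as higher, while the list median was -0.26 and the lowest difference -1.07. Postn, a seventh fibroblast marker, was not well above background in any group, and array means of the fibroblast list overlapped between Chd4 KD (-1.95 to -1.14) and EGFP KD (-1.85 to -1.69). The part of such cells in the levels of Cldn7, Cldn6 and Cdh1 was not tested.

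Likeness to Cldn7 was measured as Pearson's r of log2 signals over the 12 arrays. It was taken among 15191 genes with a symbol that were well above background on every array and saturated on none. The arrays share slides and groups, and they include the Mbd3 KD and EGFP KD arrays on which Cldn7 was chosen. The values and ranks are therefore a description, and nothing is read from them. The 5 most like genes were Acrbp (0.983), Zfp618 (0.982), Sdr39u1 (0.981), Hebp1 (0.978) and Amn (0.966). Amn, the endocytic partner of cubilin in absorptive epithelia, measured -2.21 and -2.16 in EGFP KD, 0.14 and 0.61 in Mbd3 KD, and -0.66 and -0.51 in Chd4 KD. Hebp1, a haem-binding protein, measured 1.09 and 1.07, 1.78 and 2.03, and 1.59 and 1.80 in the same groups. Of the other members, Cdh1 (0.871, rank 173) and Cldn6 (0.870, rank 178) were most like Cldn7, followed by Epcam (0.777, rank 479). Cldn3 was least like it, at -0.45.

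**Figure D4:**
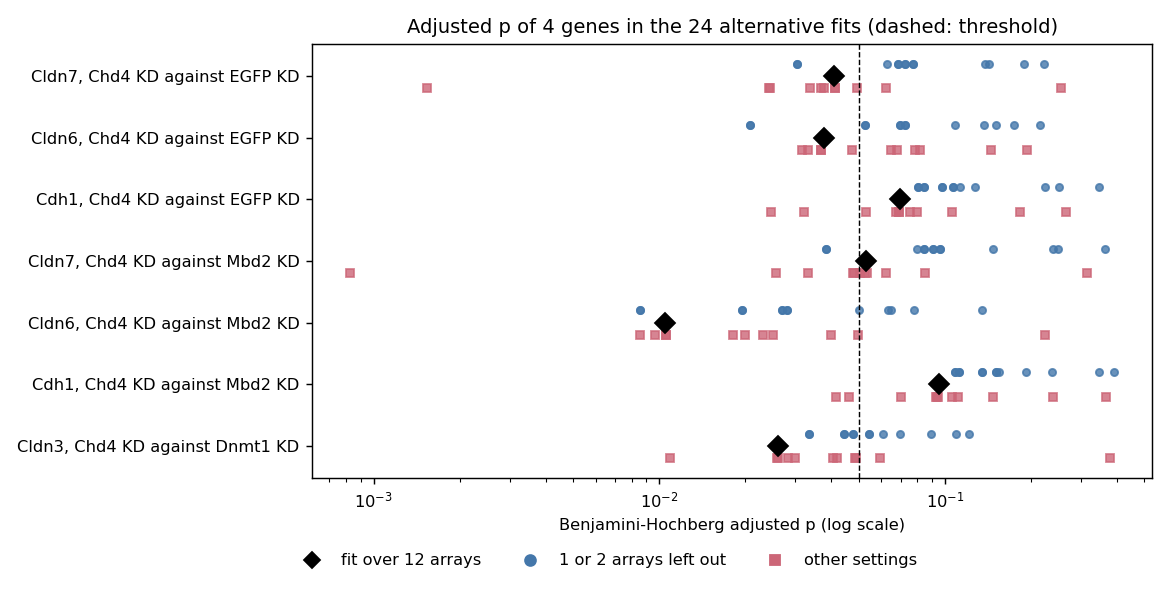
Benjamini-Hochberg adjusted p (horizontal axis, log scale) of Cldn7, Cldn6, Cdh1 and Cldn3 in Chd4 KD comparisons, from the fit over 12 arrays (diamonds) and from 24 alternative fits, with 1 or 2 arrays left out (circles) or other settings (squares); the dashed line is the threshold. Each of the 7 rows has values on both sides of the threshold.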

How the data were processed

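RNA of E14 cells was labelled by the authors with 1 dye and hybridised on Agilent mouse arrays, and the scanner output they deposited gives each spot's intensity, corrected for local background by Feature Extraction 10.7.1.1 per the file headers, with no normalization across arrays. Also deposited by the authors were log2 values of each knockdown over EGFP KD, which tracked the log2 ratio of log2 signals and served as an alternative for 4 members, as values with no test. Groups and replicates came from the sample labels.

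Here, 43020 spots that are not controls were used (1377 control spots left out, and outlier spots left out of their array). Each processed intensity was taken relative to the 75th percentile of its array and set to at least 0.0344 (log2 -4.86), and log2 was taken. Spots of a probe were averaged. A probe was kept where both arrays of some group had it well above background, and the brightest stood for its gene. The 10 genes had 13 probes, 12 of which passed. Accessions were named through RefSeq genes of GRCm38.p6, which named 71.4% of spots. An accession left without a name counted as a gene of its own, also in the shares of all genes and in the adjustment. Of 39429 probes, 76.9% to 95.2% per array were well above background, and no member probe was saturated. Precision is limited by the 2 arrays per group.

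limma 3.58.1 (R 4.3.3) fitted 1 linear model of 6 groups over all 12 arrays, with Benjamini-Hochberg adjustment over 29546 genes within a comparison and a threshold of 0.05. Replicates are biological per the study's methods. The linear model and its calls were checked on simulated gene values with independent noise, and the steps before it were not checked in this way. The genes named are all 10 members, the called genes of each list with the largest change (at most 3 each way), the targeted genes, and the 5 genes most like Cldn7. Members and lists were chosen with earlier results of these data known. Markers of other cell types, and Pkp2, were named after their values were seen. Alternatives were quantile normalization, normexp background correction (offset 50, with the median background of the array in place of any local background over 10 times it, at most 5 spots per array, a limit set after seeing the data), other filters, probe rules and floors, a block for replicate number or for slide, a fit to the 4 arrays compared alone, a trended and robust prior, and each array left out. Leaving out both arrays whose target goes against the label was added after seeing the data.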

Additional observations from a re-analysis of the deposited data

How the results depend on the processing

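With 2 arrays a group, the calls of these genes lay close to the threshold, and no called member changed direction in any of 24 alternative fits. The numbers of members called with each array left out in turn, or with both arrays whose target goes against the label left out, were 0 to 1 in Mbd3 KD, 0 to 2 in Chd4 KD against EGFP KD, 0 to 2 against Mbd2 KD and 0 to 1 against Dnmt1 KD, where the fit over 12 arrays gave 1, 2, 1 and 1. The counts in Mbd3 KD, whose values chose the genes, are a description. Without both arrays at once it was 0 in each of these 4. With only the 4 arrays of a comparison it was 0 in each, as it was for all genes. With a lower floor it was 0 in Mbd3 KD, 0 in Chd4 KD against EGFP KD and 0 against Dnmt1 KD. With slide as a block it was 0 in Mbd3 KD, 1 in Chd4 KD against EGFP KD, 2 against Mbd2 KD and 2 against Dnmt1 KD. Normexp background correction gave 2 in Mbd3 KD, 3 against Mbd2 KD and 4 against Dnmt1 KD (Cldn3, Cldn6, Cldn7 and Cdh1). Quantile normalization gave 3 against Mbd2 KD and 2 against Dnmt1 KD, and no filter gave 2 in Mbd3 KD and 2 against Dnmt1 KD. Probes above background on every array gave 1 in Chd4 KD against EGFP KD and 2 against Mbd2 KD, and a trended and robust prior gave 1 in Chd4 KD against EGFP KD. The cause of these moves was not tested. Fits with fewer arrays also have fewer degrees of freedom. After knockdown of Dnmt1, Tet1 or Mbd2 the number was 0 in every fit. Over all genes the calls ran from 0 with only the 4 arrays of a comparison to 650 in Mbd3 KD and 1790 in Chd4 KD against EGFP KD, both with normexp (225 and 946 in the fit over 12 arrays), to 1710 and 1350 in Chd4 KD against Mbd2 KD and Dnmt1 KD, also with normexp (918 and 776), and to 37, 30 and 47 after knockdown of Dnmt1, Tet1 and Mbd2 (0 in each).

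The labels do not tie a replicate number to a shared batch, and the numbers were not taken as pairs because not every pair of groups deviated together. Deviations from group means correlated at -0.04 to 0.77 between same-numbered arrays in 15 pairs of groups (median 0.38), 10 of them over 0.1, highest among Dnmt1 KD, Mbd3 KD and Mbd2 KD (0.64 to 0.77), whose same-numbered arrays also share a slide. With the replicate number as a block, members called in Chd4 KD against Mbd2 KD went from 1 to 2, and the number stayed the same in the other comparisons (1 in Mbd3 KD, 2 in Chd4 KD against EGFP KD, 1 against Dnmt1 KD).

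The deposited log2 table holds values for Cldn3, Cldn6, Cldn7 and Cdh1 among the members. By a slope over 5192 spots of each array, its scale was 0.14 to 0.16 per log2 unit of difference. In Chd4 KD the deposited values were 0.141 and 0.137 for Cldn7, 0.0657 and 0.0897 for Cldn6, 0.0797 and 0.115 for Cdh1, and -0.0989 and -0.0518 for Cldn3, in the same directions as above, with no test. The scale of a ratio of log2 signals changes with brightness, so only the directions were compared. Where leaving out an array leaves 1 in its group, that array is assumed to vary like the other groups. Dim probes such as Ocln's and Nanog's lie near the floor, where values have little order.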
